A study of Mus musculus with 300 samples.

Results

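Cells in G2/M phase were described among early T-cell progenitors of the fetal mouse thymus. They were chosen by a score, the mean deposited log2 value of 9 genes that are known to peak in G2 and mitosis (Aurkb, Pbk, Ccnf, Cdca5, Espl1, Aurka, Cdk1, Ccnb1 and Top2a). The 87 cells with the highest score, 33.3% of all cells in the matrix, are called G2/M cells here, and the rest are called other cells. The values of the 9 score genes chose the cells, so they are given only as a description. Every other gene of the cell cycle moves with the same score, and its difference from the other cells is likewise a description of the chosen cells and not independent evidence that they were dividing.

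The cells came from embryonic thymus at E15.5 of the strain that the labels call 5x polychromILC mice, were labelled as early thymic progenitors (ETP), and formed 1 group with no treatment. Every cell carries the strain's reporter alleles, among them Id2 (tagBFP), Gata3 (human CD2), Rora (mTeal) and Bcl11b (TdTomato), as known for this strain. Single cells were profiled by Smart-seq2, which primes reverse transcription with oligo-dT, amplifies the cDNA by PCR and makes Nextera XT libraries, here on 4 plates in 2 pools. For mouse ids 1A, 1B, 2A and 2B there are 67, 69, 64 and 61 cells out of 300 that were labelled, and the other 39 were not analysed here. The labels do not say how the cells were gated, nor if each mouse id stands for a single embryo.

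Depth was taken as the number of detected genes, at a median of 7782 per cell (range 5073 to 10337), because the deposited log2 values give no read counts. The matrix falls into 4 sets of cells that share exact values, and mice 2A and 2B share 2 of these sets. Detection of a gene means a value above the lowest value that its set of cells repeats, which is its level without reads. In a set where a gene has no such level, every cell counts as detected. All values below are on the deposited log2 scale. Differences were taken inside each mouse, adjusted for plate and for the number of detected genes, and are given as the mean ± SD over the 4 mice (n = 4). They were tested with limma, two-sided, with Benjamini-Hochberg adjustment over all genes tested, and "called" means an adjusted p under 0.05. All 69 cells of mouse 1B were on plate AF1, so its difference has no plate term. The p-values rest on the spread between the 4 mouse ids and not between cells. For each gene limma draws that spread toward the spread of all genes tested.

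G2 and mitosis follow DNA replication. Cyclin A and cyclin B with Cdk1 drive entry into mitosis, the chromosomes condense, spindle microtubules capture them at kinetochores, and the spindle assembly checkpoint holds the anaphase-promoting complex inactive until all are attached. Many genes of this programme are transcribed late in the cycle by the MuvB complex with B-Myb and FoxM1, acting through the cell cycle genes homology region (CHR) and, with NF-Y, through CCAAT boxes. Early thymic progenitors express Kit and are known to proliferate before they commit to the T lineage.

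The promoters of genes that the results turn on are printed first, because late cell-cycle genes are known for these 2 elements. The sequences are the 200 bases before the RefSeq start (GRCm38.p6), written 5′ to 3′ on the gene's strand, for Plk1 at chr7:122159235-122159434 (+), Cdc20 at chr4:118437344-118437543 (−), Cenpf at chr1:189688087-189688286 (−), Ccnb2 at chr9:70421555-70421754 (−), Mybl2 at chr2:163054435-163054634 (+) and Cdk1, a score gene, at chr10:69352913-69353112 (−). Capitals mark CHR letters (TTTGAA or TTCGAA) and CCAAT, on either strand.
Plk1: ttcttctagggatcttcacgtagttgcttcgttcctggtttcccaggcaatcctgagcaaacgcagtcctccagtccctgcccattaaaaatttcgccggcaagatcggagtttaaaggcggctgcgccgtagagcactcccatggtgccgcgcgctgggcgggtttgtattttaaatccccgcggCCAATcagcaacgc
Cdc20: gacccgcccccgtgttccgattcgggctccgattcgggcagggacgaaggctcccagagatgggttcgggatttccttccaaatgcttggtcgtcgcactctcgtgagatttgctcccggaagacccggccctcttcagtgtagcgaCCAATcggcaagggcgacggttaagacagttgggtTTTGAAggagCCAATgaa
Cenpf: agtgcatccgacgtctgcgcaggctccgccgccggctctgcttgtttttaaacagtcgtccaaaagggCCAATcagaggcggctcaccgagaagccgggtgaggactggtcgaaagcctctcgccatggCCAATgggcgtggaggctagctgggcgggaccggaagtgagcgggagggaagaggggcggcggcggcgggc
Ccnb2: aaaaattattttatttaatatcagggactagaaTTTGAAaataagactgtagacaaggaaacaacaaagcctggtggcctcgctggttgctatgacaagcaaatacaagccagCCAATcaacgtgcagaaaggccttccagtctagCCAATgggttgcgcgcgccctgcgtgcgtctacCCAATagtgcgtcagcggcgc
Mybl2: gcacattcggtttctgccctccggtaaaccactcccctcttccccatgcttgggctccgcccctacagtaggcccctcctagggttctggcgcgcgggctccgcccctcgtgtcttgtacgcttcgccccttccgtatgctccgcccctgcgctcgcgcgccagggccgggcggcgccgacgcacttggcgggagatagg
Cdk1: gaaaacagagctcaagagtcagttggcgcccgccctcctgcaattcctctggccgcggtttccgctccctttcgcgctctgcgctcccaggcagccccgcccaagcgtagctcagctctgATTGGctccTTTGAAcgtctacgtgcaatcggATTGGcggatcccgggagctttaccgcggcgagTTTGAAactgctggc

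Cdc20 and Cdk1 had both kinds of letters, with the nearest CHR beginning 18 and 15 bases before the start. Plk1 and Cenpf had only CCAAT in this window, at 1 and 2 places, and Mybl2, which encodes B-Myb itself, had neither. Ccnb2 had 3 CCAAT boxes and a CHR at a greater distance, near the far end of the window. RefSeq windows of 300 bases (250 before to 50 after the start) were found for 83.8% of the 130 genes of the mitotic lists described below. Of their promoters, 54.5% held either CHR form, 63.4% held CCAAT and 39.8% held both. Over all 32851 promoters of the table the shares were 19.2%, 37.4% and 7.52%. In the 36 promoters of the S phase list, CCAAT was present in 69.4% and CHR in 16.7%. A match shows the letters only, not a bound site.

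The score ran from -0.18 to 9.20 without an empty range at the threshold. The 3 lowest members scored 6.25, 6.28 and 6.30, and the 3 highest cells outside scored 6.21, 6.21 and 6.14. Within 1 log2 unit of the threshold there were 26 cells on each side, so the class is a range of the score and not a separate cluster. The median score was 7.84 in members and 2.58 in other cells. All 9 score genes were detected in 67 members, 8 of them in 15 and 7 of them in 5, whereas 11 other cells had all 9 and 62.6% of other cells had at most 6. In these counts Top2a is detected by default in any set that lacks its level without reads.

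The defining markers were present in nearly every member. Cdk1, the mitotic kinase, and Top2a, the topoisomerase that untangles sister chromatids, were detected in all 87. For Top2a this was fixed in any set that lacks its level without reads, and counts of several markers together include it. Aurkb, the kinase of the chromosomal passenger complex, was detected in 85 members (mean 8.44 ± 0.51 over mice), and Ccnb1, cyclin B1, also in 85. All 4 of these markers were detected together in 83 of 87 members and in 44.3% of other cells, so their presence alone did not separate the cells. Espl1, the separase that opens cohesin at anaphase, divided them most by detection, at 80 of 87 members and 33.3% of other cells.

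**Figure D1:**
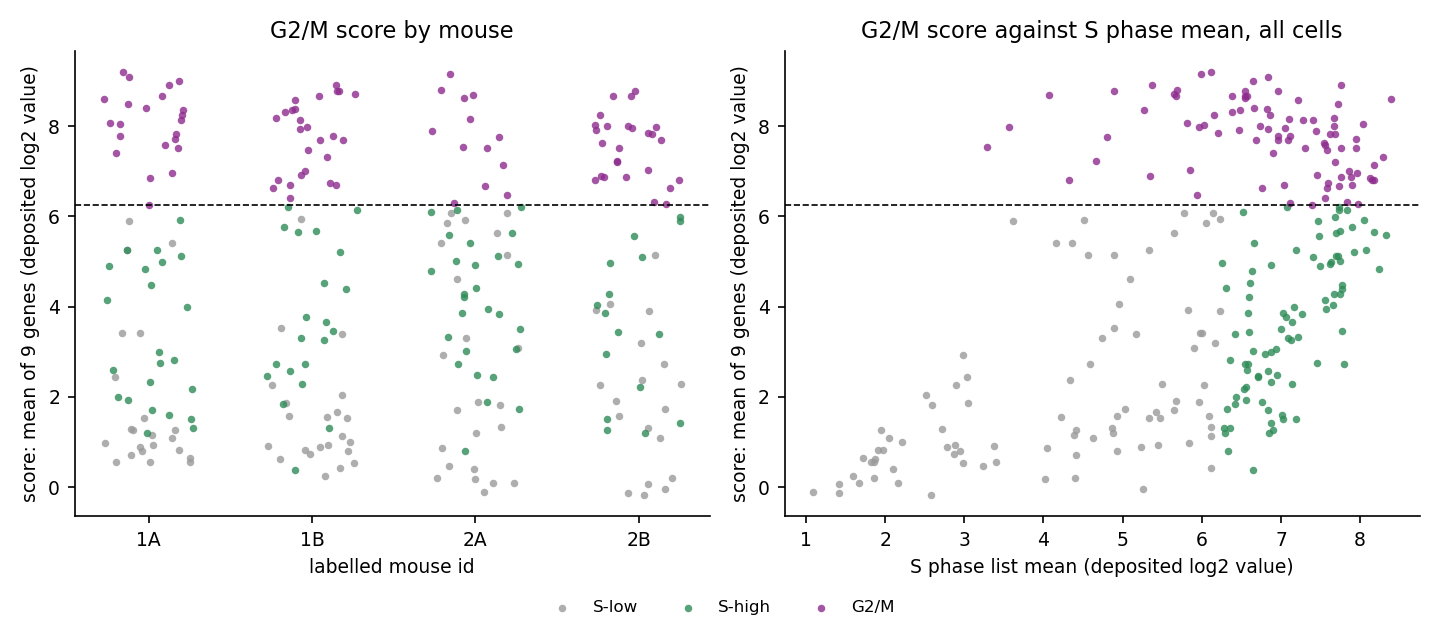
Left, G2/M score of each cell by mouse id, in log2 units, with the threshold as a dashed line; right, the score against the mean of the S phase list. G2/M cells lie above 6.25 in every mouse and the other cells are coloured as S-high or S-low, and many G2/M cells have S phase means as high as the S-high cells.

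G2/M cells were found in every mouse, plate and pool. They made up 22 of 67 cells in mouse 1A (32.8%, exact 95% Clopper-Pearson interval 21.8 to 45.4%), 26 of 69 in 1B (37.7%, 26.3 to 50.2%), 13 of 64 in 2A (20.3%, 11.3 to 32.2%) and 26 of 61 in 2B (42.6%, 30 to 55.9%). The intervals cover counting error only and overlap between all 4 mice. The low share of mouse 2A was seen on both of its plates, with 6 of 29 and 7 of 35 cells. By pool the shares were 32.7% and 34.4%. These shares follow from 1 threshold over all cells and make no statement about the true share of dividing cells in the thymus.

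G2/M cells had more detected genes. The means per cell, given here and below in the order 1A, 1B, 2A and 2B, were 8131, 7874, 8219 and 8467 in G2/M cells and 6958, 7159, 7622 and 7731 in other cells. The difference was 805 ± 252.6 genes and went the same way in 4 of 4 mice (exact sign-flip permutation test, two-sided p = 0.13, the smallest that 4 mice allow). More RNA per cell and better capture of it cannot be told apart here. The mitochondrial share of the linear signal was 3.36% in G2/M cells and 3.13% in other cells. Because detected genes move with the score, the adjusted differences below depend on that term, and unadjusted levels are printed beside many of them.

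Against the other cells, 12430 genes were tested, 1.49% were called higher and 11 genes (0.0885%) were called lower. All called genes had the same sign in 4 of 4 mice, and 1533 genes had an unadjusted p under 0.05. The higher genes were 77 of the mitotic lists, 32 of other cell-cycle and histone lists and 76 of none. The 9 mitotic lists together hold 130 genes besides the score genes. Their median adjusted difference was 2.08, where the median over all genes tested was 0.00, and all but 5 of the 130 were above 0. The rule chose the cells by genes of the same programme, so nothing is read from these counts beyond the description. With 3 mice the test called fewer genes, 0.756 to 0.941% when 1 mouse was left out, and named genes that lost their call are given with that p below.

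**Figure D2:**
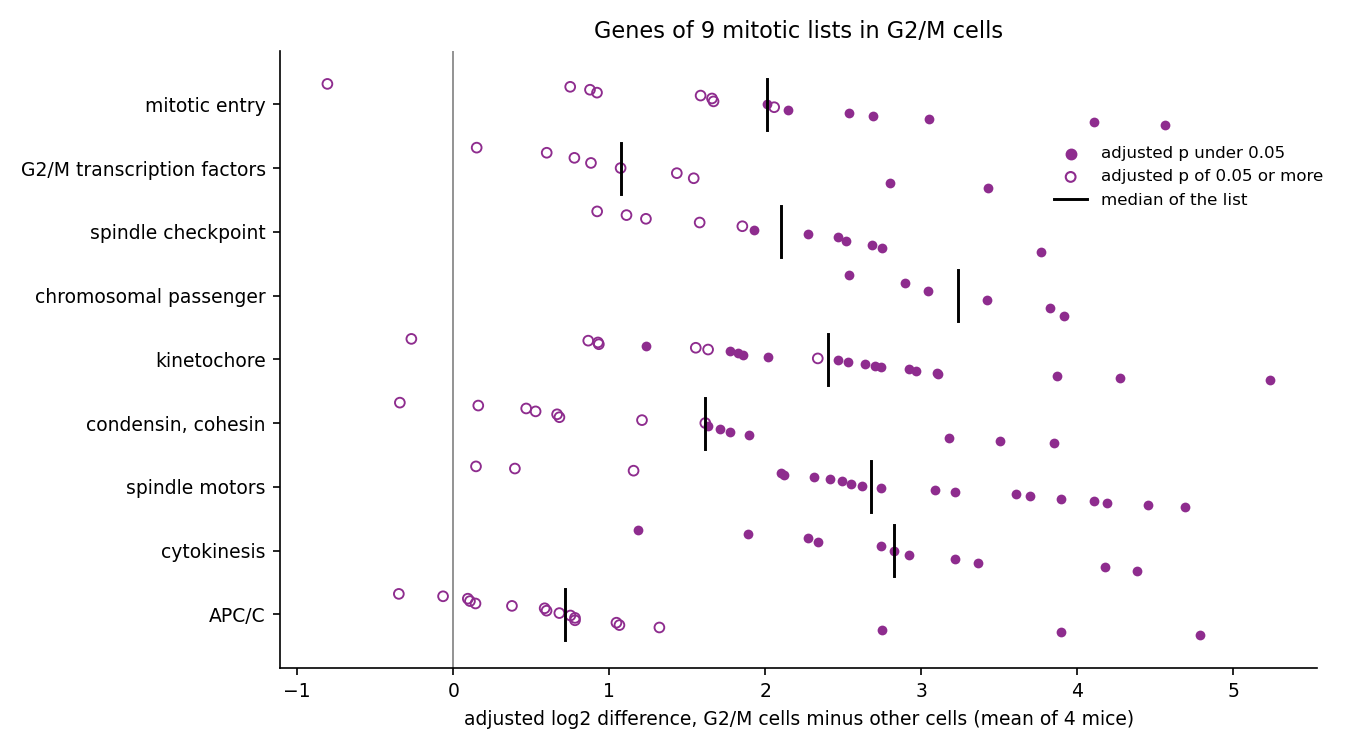
Adjusted log2 difference (G2/M minus other cells, mean over 4 mice) of each of 130 genes in 9 mitotic lists; filled points have an adjusted p under 0.05 and bars are list medians. Medians run from 0.72 for the anaphase-promoting complex to 3.24 for the chromosomal passenger complex and shugoshins.

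Among the kinases and cyclins of mitotic entry, 7 of 15 were called higher, with a median of 2.01. Plk1 (chr7:122159439-122169873), the polo kinase that acts from centrosome maturation to cytokinesis, had mean levels of 7.65, 6.75, 7.82 and 7.14 in the G2/M cells of the 4 mice in the same order and of 2.06, 1.53, 3.10 and 1.65 in the other cells. The groups did not overlap between mice, and the adjusted difference was 4.56 ± 0.44 (limma, adjusted p = 0.000357). Plk1 was detected in 80 of 87 G2/M cells and 48.3% of other cells. Ccna2, cyclin A2 (chr3:36564865-36572150), stood at 9.53, 9.07, 9.36 and 9.10 against 4.28, 4.16, 5.04 and 4.46. It was detected in all 87 members, and its difference of 4.11 ± 0.17 varied little between mice (adjusted p = 0.000329). Ccnb2, the second B-type cyclin, was not called. Its levels were 6.18, 5.46, 7.07 and 6.0 against 4.03, 4.34, 5.01 and 4.34, and the adjusted difference was 0.88 ± 0.53 (adjusted p = 0.235). Melk (2.69) and Gtse1 (3.05) were the other called genes of this list named by rule.

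In the list of MuvB subunits, B-Myb, FoxM1 and the atypical E2F factors, Foxm1 and E2f8 were the 2 called of 9, with a list median of 1.07. Foxm1 was at 5.91, 5.29, 3.66 and 5.46 in G2/M cells and at 1.1, 1.12, 2.13 and 1.32 in other cells. Mouse 2A had both the lowest G2/M level and the highest level outside, and the difference was 3.43 ± 1.45 (adjusted p = 0.0192). E2f8, an atypical repressor E2F, differed by 2.80 ± 1.11 (adjusted p = 0.019). Mybl2 was at 6.70, 6.18, 6.55 and 6.52 against 3.70, 3.87, 3.74 and 3.01, and missed the threshold after adjustment (1.54 ± 0.77, adjusted p = 0.082). Nfyb, a subunit of the CCAAT-binding factor NF-Y, is in no list and was chosen after its values were seen; it was higher by 1.82 ± 0.51 (adjusted p = 0.0187). Foxm1 lost its call without 1A, 1B or 2B (adjusted p = 0.0828 to 0.106), E2f8 without 1B or 2B (0.0584 and 0.111) and Nfyb without 1A, 1B or 2A (0.0899 to 0.106).

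The kinetochore list gave 17 calls of 24 (median 2.40). Spc25 (chr2:69193895-69206194), a subunit of the Ndc80 complex that binds spindle microtubules, had the largest adjusted difference of all genes tested against the other cells. It was at 7.52, 6.76, 7.33 and 7.19 in G2/M cells and at 1.79, 1.5, 1.96 and 2.28 in other cells, a difference of 5.24 ± 0.34 (adjusted p = 0.000299), and was detected in 96.6% of G2/M and 46.6% of other cells. Its partners Ndc80 and Nuf2 differed by 4.28 ± 0.67 and 3.87. Cenpf, which coats the outer kinetochore, and Cenpe, its motor, differed by 2.64 ± 0.35 (adjusted p = 0.00157) and 2.71 ± 1.24 (adjusted p = 0.0312). Cenpe lost its call when any 1 mouse was left out (adjusted p = 0.0502 to 0.129).

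All 6 tested genes of the chromosomal passenger and shugoshin list were called higher (median 3.24). They include Incenp, the scaffold of Aurora B (3.92 ± 0.36), Sgo2a, which protects centromeric cohesin (3.82), Birc5, survivin (3.42), and Cdca8, borealin (3.05). The spindle assembly checkpoint gave 7 of 12 (median 2.10), led by the kinase Bub1 (3.77 ± 0.21, adjusted p = 0.000385), with Knl1, its kinetochore platform (2.75), Trip13 (2.68) and Ttk, the Mps1 kinase (2.52). Trip13 lost its call without 2B (adjusted p = 0.0642).

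Spindle motors and microtubule proteins gave 17 of 20 (median 2.68). Kif11 (chr19:37376403-37421859), the kinesin that pushes spindle poles apart, was at 7.23, 6.79, 6.87 and 6.80 in G2/M cells and at 2.01, 1.59, 2.69 and 2.10 in other cells (4.69 ± 0.35, adjusted p = 0.000299). It was detected in all 87 members and 58.6% of other cells. A second row of the matrix without a symbol (ENSMUSG00000111220.1) differs from Kif11 by at most 0.000573 log2 in any cell, so the reads of the pair cannot be told apart and the 2 rows count as 1 measurement. Nusap1, which bundles spindle microtubules, and the kinesins Kif22 and Kif2c differed by 4.45 ± 0.25, 4.19 and 4.11.

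All 11 cytokinesis genes tested were called higher (median 2.83). Kif20a, which relocates the passenger complex to the midzone, differed by 4.38 ± 0.85, and Prc1, the midzone crosslinker, by 4.18 ± 0.60. Racgap1, of centralspindlin, and the contractile ring protein Anln differed by 3.37 and 3.22. The condensin and cohesin list gave 7 of 15 (median 1.62), among them the condensin subunits Ncapg (3.85), Ncaph (3.18) and Smc2 (1.90), the last with no call when any 1 mouse was left out (adjusted p = 0.0512 to 0.113). Mki67, the Ki-67 antigen that coats mitotic chromosomes (chr7:135689784-135716361), was at 8.04, 8.13, 7.37 and 7.66 against 3.88, 4.57, 4.86 and 4.02 (3.50 ± 0.58, adjusted p = 0.00105). It was detected in 86 of 87 members (98.9%) and in 83.9% of other cells.

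The anaphase-promoting complex list gave 3 calls of 18, with a median of 0.72. The called genes were Ube2c, its ubiquitin-conjugating enzyme, Cdc20, its mitotic activator, and Fbxo5, its interphase inhibitor Emi1. Ube2c (chr2:164769898-164778822) was at 6.76, 6.49, 7.35 and 6.83 against 1.84, 1.53, 2.78 and 0.99 (4.79 ± 0.52, adjusted p = 0.000357). Cdc20 (chr4:118432901-118437352) was at 7.92, 7.13, 8.34 and 7.42 against 3.11, 4.23, 4.98 and 3.64 (2.75 ± 0.84, adjusted p = 0.00836), and Fbxo5 differed by 3.90 ± 0.54. The core subunits of the complex were not called, and Cdc23 came nearest (1.32 ± 0.44, adjusted p = 0.0577, above 0 in 4 of 4 mice). Nuclear envelope and lamina genes gave 0 of 16 calls by limma (median 0.40), near the 1.58% called over all genes tested. The largest differences were those of the pore subunits Nup107 (1.17), Nup133 (1.04) and Nup37 (1.01).

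DNA replication genes were mixed. The S phase list gave 5 higher and 1 lower of 44, with a median adjusted difference of 0.13. Unadjusted, the list mean was 6.77 in G2/M cells and 5.61 in other cells, higher in 4 of 4 mice. Rrm2, of ribonucleotide reductase (chr12:24708241-24714146), was at 9.63, 8.51, 8.20 and 7.86 in G2/M cells against 5.30, 4.96, 5.75 and 5.54, with no overlap between mice (2.11 ± 0.66, adjusted p = 0.016). Brip1, a repair helicase, was at 5.19, 5.26, 5.31 and 4.03 against 2.21, 1.88, 2.59 and 2.37 (2.57 ± 0.45, adjusted p = 0.00249). Among the other higher genes were Tyms (1.91), which makes thymidylate, and Clspn (1.86), both chosen after their values were seen. Rrm2 lost its call without 1A, 1B or 2A (adjusted p = 0.0733 to 0.09) and Clspn without 1A, 1B or 2B (0.109 to 0.162). The helicase and clamp genes Mcm5 (-0.30 ± 0.97, adjusted p = 0.815) and Pcna (0.27, adjusted p = 0.76) were not called. Unadjusted, Mcm5 had a mean of 9.17 in G2/M and 8.37 in other cells, and Pcna of 9.04 and 8.39. In mouse 2A both ran the other way (8.07 against 8.72 and 8.41 against 8.65).

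Ung, the uracil-DNA glycosylase (chr5:114130386-114139323), was the called gene with the lowest difference. The other cells were divided for this by the mean of the S phase list into the 87 highest, called S-high cells, and the 87 lowest, called S-low cells. Ung was at 4.15, 3.56, 3.57 and 3.80 in the G2/M cells of the 4 mice, at 7.65, 8.11, 7.30 and 7.91 in S-high cells, and at 3.64, 3.71, 3.26 and 2.75 in S-low cells. G2/M and S-high levels did not overlap, but Ung is itself in the list that defined the S-high cells, so that contrast is a description. Against all other cells its adjusted difference was -2.83 ± 0.79 (adjusted p = 0.00598). It was detected in 67 of 87 G2/M, 84 of 87 S-high and 61 of 87 S-low cells.

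E2f1, the activator of the G1 to S transition (chr2:154559407-154569892), is not in the S phase list and was also lower. It was at 2.71, 1.73, 1.85 and 2.85 in G2/M cells and at 3.10, 3.26, 2.86 and 3.08 in other cells. The levels did not overlap between mice, although 2.85 and 2.86 lay next to each other, and the adjusted difference was -1.48 ± 0.49 (adjusted p = 0.0416). E2f1 was no longer called when any 1 mouse was left out (adjusted p = 0.0754 to 0.193), nor with the correction set in place of plate (0.0704). Without the term for detected genes it stood at -0.75 (adjusted p = 0.106) and with the score of 4 marker genes at -0.94 (0.213). The call was also lost on ranks, with no filter on detection, with levels under 10 set to no reads, with the score on aligned levels, with sets as units and in cells with Kit and Cd34 (adjusted p = 0.0571 to 0.166). E2f2 was higher instead, by 1.41 ± 0.32 (adjusted p = 0.0321), a call also lost without any 1 mouse (0.0923 to 0.173). The G1 regulators Ccnd2 (-0.11), Ccnd3 (0.14) and Cdk6 (-0.58) and the inhibitor Cdkn1b (0.70, adjusted p = 0.24) were not called.

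The G2/M cells were then compared with the 87 S-high cells, a set chosen by its S phase transcripts, with the S phase list left out. Of 12386 genes, 0.92% were higher and 10 genes (0.0807%) lower in G2/M cells, and 1500 had an unadjusted p under 0.05. The higher genes were 60 of the mitotic lists and 54 others. The mitotic lists had a median of 2.0 over 130 genes, against -0.03 over all genes. Spindle motors gave 16 calls of 20 (median 2.89), the kinetochore 13 of 24 (2.11) and the passenger complex 4 of 6 (3.18). E2f1 was lower by -2.26 ± 0.87 (adjusted p = 0.0409), and Cdt1, which licenses origins in G1 and is destroyed in S phase, by -1.64 (adjusted p = 0.0253). Both calls were lost when any 1 mouse was left out (E2f1 0.0712 to 0.201, Cdt1 0.0992 to 0.163). That of E2f1 was also lost without the term for detected genes (-1.81, adjusted p = 0.116) and with sets as units (0.0931). Mybl2 had a mean of 6.49 in G2/M, 5.51 in S-high and 1.70 in S-low cells.

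**Figure D3:**
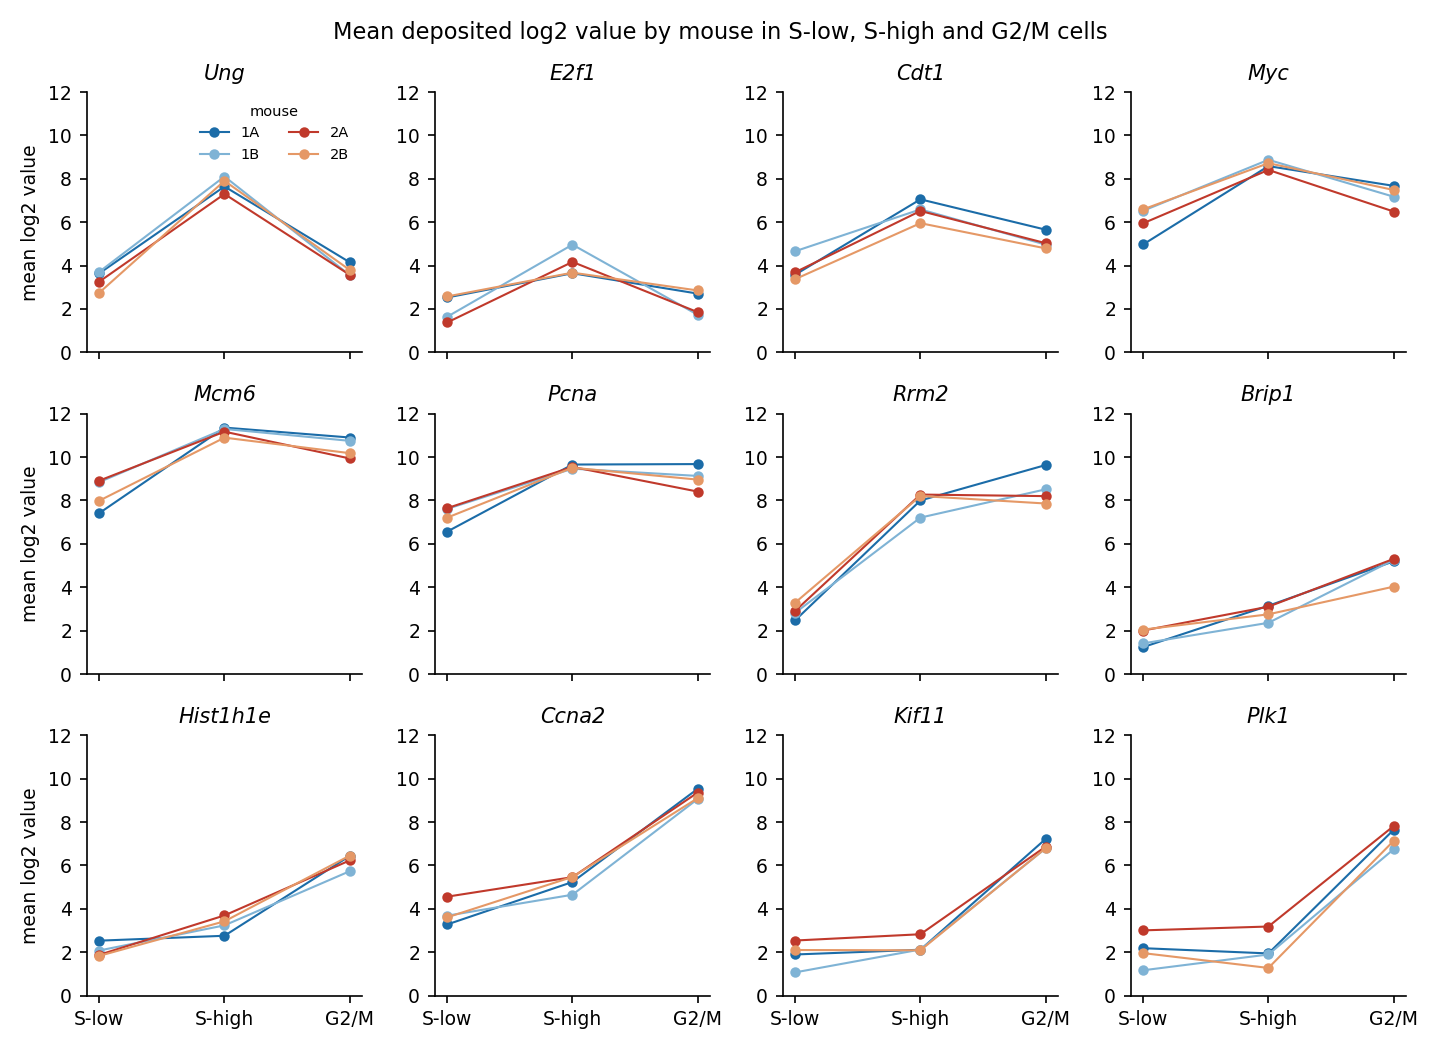
Mean deposited log2 level of 12 genes in S-low, S-high and G2/M cells, with 1 point per mouse id and lines that join the points of a mouse. Ung and E2f1 peak in S-high cells, Plk1 and Kif11 in G2/M cells, and Myc is highest in S-high cells.

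Replication-dependent histone genes, which package newly made DNA and are known to be transcribed in S phase, were in part called higher in G2/M cells. Of 45 tested, 18 were called higher against all other cells (median 1.20, 43 above 0) and 14 against S-high cells (median 1.12). The number called depended on the mice. Against S-high cells it was 7 without mouse 1A, 4 without 1B, 11 without 2A, 4 without 2B, and 2 with members taken by rank inside each mouse, where the median was 0.93. Against all other cells it was 12, 10, 16 and 11 without those mice, and 12 with members taken by rank inside each mouse. The medians with 1 mouse left out were 1.01 to 1.18 against S-high cells and 1.08 to 1.20 against all other cells. The mean of the list was 2.46 in G2/M cells, 1.27 in S-high and 0.97 in S-low cells. A G2/M cell had 26.8 of these genes detected on average and another cell 14.5, and both measures were higher in 4 of 4 mice.

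The counts are given by class, and no test between classes was made. Linker histone H1 gave 2 calls of 5 (median 1.52), H2A 11 of 15 (2.10), H3 2 of 5 (1.25), H4 3 of 7 (0.82) and H2B 0 of 13 (0.42, with 11 of 13 above 0). Several H2B genes were detected in few cells, such as Hist1h2bp in 10.3% and Hist1h2bb in 12.6% of all cells. The most widely detected were Hist1h2bq (75.9%, difference 0.03), Hist1h2br (70.9%, -0.12) and Hist1h2bc (57.1%). Hist1h2bc had the largest H2B difference and was lower, by -2.23 ± 1.15 and in 4 of 4 mice (limma, adjusted p = 0.0548). Hist1h1e (chr13:23620629-23622558) was at 6.44, 5.74, 6.23 and 6.45 in G2/M cells and at 2.65, 2.65, 2.84 and 2.56 in other cells, with no overlap (3.74 ± 0.55, adjusted p = 0.000903). Its means were 3.28 in S-high and 2.08 in S-low cells. The annotated gene Hist1h2be overlaps it. Hist1h2ab stood at 4.71, 4.32, 3.94 and 4.35 against 0.89, 0.89, 1.17 and 1.16 (3.26 ± 0.43) and was detected in 86.2% of G2/M and 29.9% of other cells. Hist1h2aj (3.19), Hist1h2ae (3.07) and Hist2h3b (3.04) followed. Histone paralogs are nearly identical and can share reads, so values for single genes are uncertain. Most of their transcripts lack the poly(A) tail that oligo-dT priming needs. The list means, detection counts and class counts are therefore uncertain as measures of histone RNA as well.

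**Figure D4:**
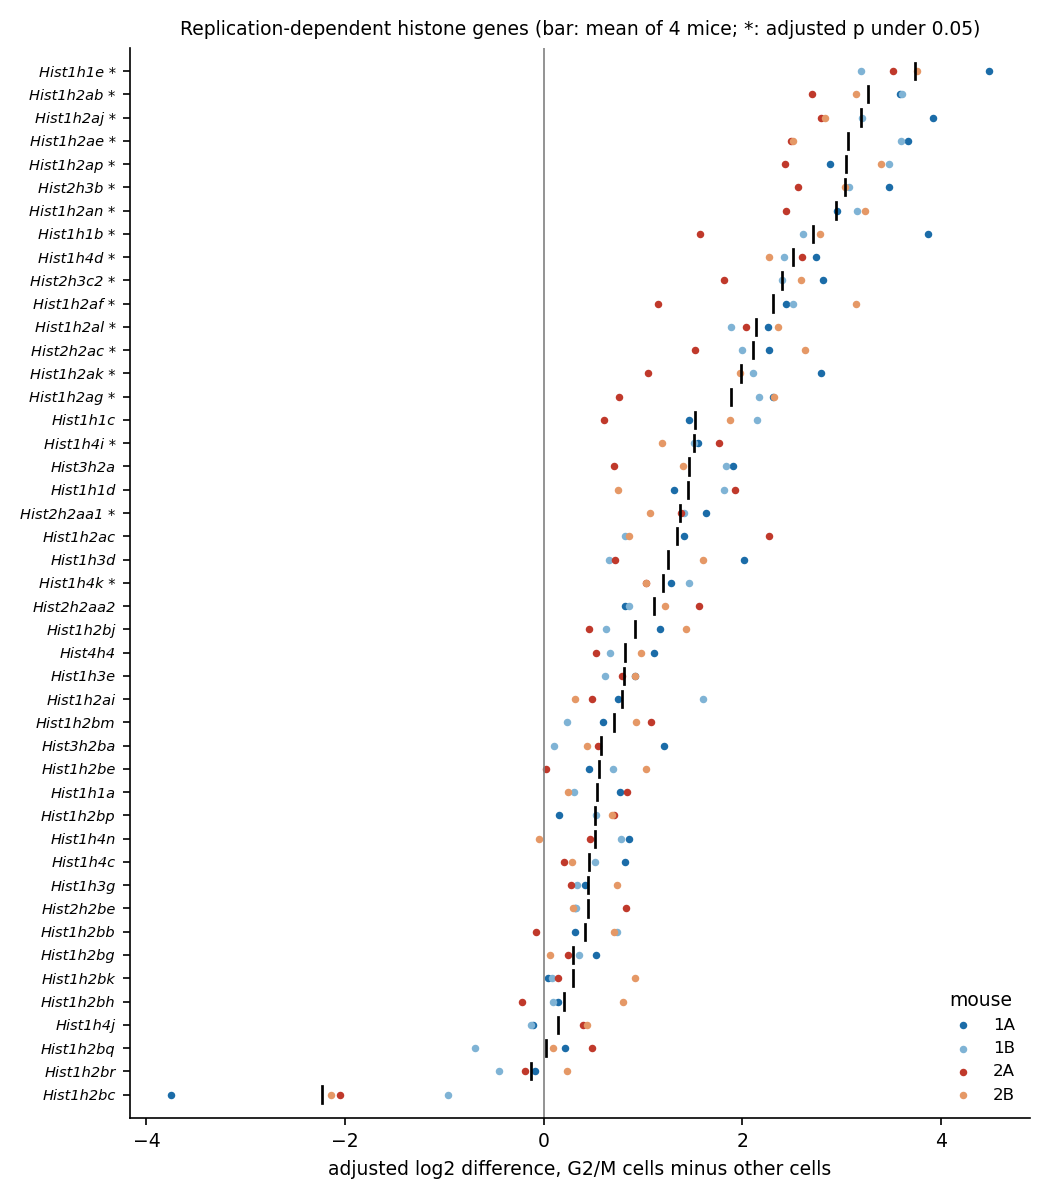
Adjusted log2 difference (G2/M minus other cells) of 45 replication-dependent histone genes in each of 4 mice, ordered by the mean difference. An asterisk marks an adjusted p under 0.05. H2A holds 11 of the 18 called genes and H2B none.

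Other genes of chromatin, repair and cell-cycle braking were called singly. Ccng2, cyclin G2 (chr5:93267257-93276231), had the largest difference of the inhibitor list, where 2 of 19 were higher. It was at 5.89, 6.63, 5.22 and 5.43 in G2/M cells against 2.56, 3.03, 2.96 and 2.82 (3.27 ± 0.59, adjusted p = 0.00136). It was lower in S-high (1.91) than in S-low cells (3.70), classes that the S phase list itself defined. Cdkn2d, the p19 inhibitor, was the other (1.65 ± 0.53, adjusted p = 0.0303). In the DNA damage list 3 of 16 were higher, Fancd2 (2.66), Brca1 (2.17) and H2afx (2.08 ± 0.49, adjusted p = 0.00924), and among histone variants and chaperones Asf1b (2.90) and Hmgb2 (1.34 ± 0.25, adjusted p = 0.033) joined H2afx, for 3 of 14. Cdkn2d and H2afx lost their call without 1B, 2A or 2B (adjusted p = 0.128 to 0.138 and 0.0542 to 0.0698), Brca1 without 1A, 1B or 2B (0.0737 to 0.119) and Hmgb2 without any 1 mouse (0.098 to 0.178). Tuba1c was the 1 called tubulin of 10 (2.41 ± 0.44, adjusted p = 0.00342). Neil3, a DNA glycosylase in none of the lists, differed by 3.91 ± 0.76.

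The 11 genes lower in G2/M cells hold, besides Ung and E2f1, Myc, the growth regulator (chr15:61985391-61990374). Its unadjusted levels were 7.68, 7.17, 6.49 and 7.48 in G2/M cells and 6.82, 7.67, 7.25 and 7.56 in other cells, so they overlapped, and they lay between the S-high (8.58, 8.88, 8.41 and 8.72) and S-low cells (4.97, 6.53, 5.95 and 6.59). The adjusted difference was -1.62 ± 0.56 (adjusted p = 0.0352), and -0.16 without the term for detected genes. The call was lost without mouse 1A, 1B or 2A (adjusted p = 0.135, 0.184 and 0.148). It was also lost with levels under 10 set to no reads (0.13) and with no filter on detection (0.0539). In cells with Kit and Cd34 the adjusted p was 0.0508, and with the score of 4 marker genes 0.107. It was 0.0593 with the score on aligned levels and 0.13 with only the 65 highest scores as members. It was 0.127 with members taken by rank inside each mouse and 0.102 without the first 8 wells. Against S-high cells Myc was lower by -2.05 ± 0.35 (adjusted p = 0.0127), and by -1.44 without the term for detected genes (adjusted p = 0.0475). That call was lost without mouse 1B, 2A or 2B (0.0661 to 0.084) and without the first 8 wells (0.0996). Also lower than in all other cells were Gfi1b, a repressor of blood progenitors (-1.69 ± 0.64, adjusted p = 0.0375), Idi1 and Fads1, enzymes of isoprenoid and fatty acid synthesis (-1.36 ± 0.36 and -1.59 ± 0.30), and Smim5 (-1.79 ± 0.42), Tmem176b (-1.84 ± 0.80) and the receptor-like Ptk7 (-1.28 ± 0.31). Gfi1b, Idi1, Fads1 and Ptk7 lost their call when any 1 mouse was left out (adjusted p = 0.0739 to 0.184, 0.0859 to 0.2, 0.0592 to 0.098 and 0.1 to 0.193), Smim5 without 1A, 2A or 2B (0.0754 to 0.0818) and Tmem176b without 1B, 2A or 2B (0.153 to 0.202). Ptk7 was at 0.42 without the term for detected genes.

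Most lineage and progenitor genes, unlike the cell-cycle genes, were not part of the score's programme. Myc and Mycn are exceptions, since they also stand in the list of G1 and S cyclins, CDKs and E2F. Over the 11 lineage lists together, 120 genes were tested, 0 were called higher and 1 lower. That gene was Myc, which stood among Notch targets and is a cell-cycle list gene as well. Its call was lost under many of the alternatives, as given above. Over all genes tested 1.49% were called higher and 0.0885% lower, so these counts do not set the lineage genes apart. By limma 26 of the 120 (21.7%) had an unadjusted p under 0.05, against 12.3% of all genes tested, and the next smallest adjusted p was 0.124 (Ikzf3, 1.21 ± 0.60). A test on ranks called Klrk1, Ikzf3 and Klrb1b higher and Myb and Myc lower. Without the term for detected genes, Cd27, Mycn and Cd34 were called higher and Ly6d, Irf8, Pld4 and Fcer1g lower, and Myc was not called.

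Progenitor receptors were detected in most cells of both classes. Kit, the stem cell factor receptor, was detected in 82 of 87 G2/M cells (94.3%) and 89.1% of other cells, and Cd34 in 98.9% and 92.5%. Kit was at 7.24, 7.38, 6.61 and 7.80 against 6.31, 6.73, 6.65 and 7.32. Cd34 was at 8.11, 7.87, 7.65 and 7.90 against 6.18, 7.16, 6.63 and 7.36, higher in 4 of 4 mice.

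The direction of the progenitor list depends on the term for detected genes. Adjusted, Kit differed by -1.12 ± 0.99 (adjusted p = 0.28), Cd34 by -1.08 ± 0.70 (adjusted p = 0.195) and the list by a median of -0.43, with 16 of 21 genes below 0. Without the term the list median was 0.60 against 0.33 for all genes, Kit was at 0.48 (adjusted p = 0.19), and Cd34 was called higher at 1.01 (adjusted p = 0.034). The S-high cells had a progenitor list mean of 5.42, close to the 5.35 of G2/M cells, and the S-low cells 4.21. No direction is therefore given for these genes.

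Genes of T-cell specification did not pass the test in either direction (0 of 24 by limma, median -0.20). Tcf7, the early T-lineage factor, was detected in 71 of 87 G2/M cells (81.6%) and 80.5% of other cells (-1.29 ± 1.47, adjusted p = 0.368). Il2ra, the CD25 chain, was detected in 49.4% and 56.3% (-0.87, adjusted p = 0.357), and Lck in 97.7% and 98.3% (-0.51). Bcl11b, the commitment factor, was detected in 14.9% and 13.2% (0.09). Gata3 (0.15), Id2 (0.75), Rora (0.40) and Notch1 (-0.41) were likewise not called, nor was Il7r (1.17 ± 0.72, adjusted p = 0.172). The ILC list gave 0 of 17 (median 0.30) and the NK list 0 of 13 (median 0.66). Where 1.58% of all genes tested were called, 0 calls in such short lists is near that share. A missed threshold does not show equal levels.

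**Figure D5:**
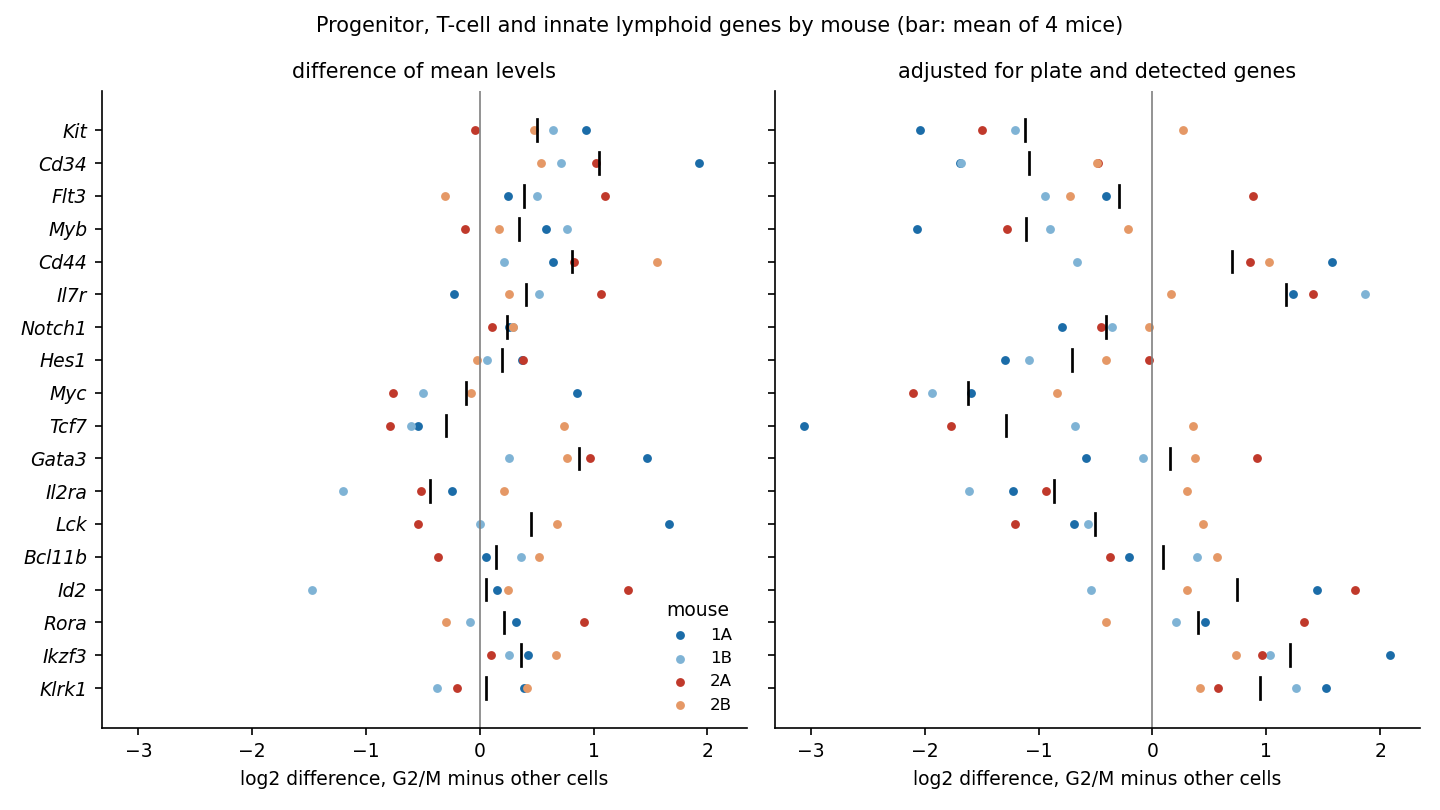
Differences of 18 progenitor, T-cell and innate lymphoid genes between G2/M and other cells in each of 4 mice, on the log2 scale, without (left) and with (right) the terms for plate and detected genes; bars are means of 4 mice. Kit and Cd34 have positive means on the left and negative means on the right.

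Transcripts of the reporters, chosen after their values were seen, gave no call. The tagBFP transcript was detected in 90.8% of G2/M and 83.3% of other cells (1.07 ± 1.41, adjusted p = 0.444), that of human CD2 in 66.7% and 56.9% (-0.21) and mTeal in 17.2% and 10.3% (0.48). TdTomato was detected in 5 and 7 cells and was below the filter on detection.

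Cells with high levels of markers of other cell types were found in and outside the G2/M class. A list mean of at least 5, a level chosen after the values were seen, was reached for the progenitor list by 70 G2/M cells (80.5%) and 58% of other cells. For the dendritic list it was reached by 2 G2/M cells (2.30%) and 22 other cells (12.6%), for the NK list by 5 and 15, for macrophages by 2 and 5, for mast cells and basophils by 2 and 7, for ILC by 4 and 3, for T specification by 0 and 4 and for B cells by 3 and 0. No cell reached it for the erythroid list, and 1 in each class did for thymic stroma. The mean of the dendritic list was 1.62 in G2/M cells and 2.14 in other cells, lower in 4 of 4 mice (exact sign-flip permutation test, two-sided p = 0.13), while its median adjusted difference was -0.02. Among the cells with both Kit and Cd34, 81 were G2/M cells (35.5%), and among the 33 cells without both, 6 (18.2%). With only the cells that had both, 1.15% of genes were called, where 1.58% were called with all cells.

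Lists of general cell functions, with 11 to 87 genes tested in each, gave 0 calls by limma, near the 1.58% called over all genes tested. They were the cytosolic ribosomal proteins (79 tested, median -0.17, 43 below 0 in all 4 mice), the proteasome (39, -0.08), nuclear oxidative phosphorylation (87, -0.02), mitochondrially encoded genes (13, -0.05), nucleolus (16, -0.21), glycolysis (16, 0.00) and immediate early genes (11, 0.18). Of all 12430 genes tested, 1112 were below 0 in all 4 mice. Unadjusted, the ribosomal list mean was 8.07 in G2/M cells and 8.10 in other cells, and was higher in G2/M cells in 3 of 4 mice.

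The 87 G2/M cells differed among themselves. Their S phase list means ran from 3.28 to 8.39 with a median of 7.04, near the 7.02 of S-high cells. Of the 87, 44 lay above that S-high median, 22 lay below the lowest S-high cell (6.25) and 4 below the S-low median (4.42). The spindle list mean ran from 2.56 to 8.65 with a median of 6.18, and 86 of 87 lay above the S-high median of 2.72. Inside the G2/M cells of each mouse the 2 means ran against each other, with Pearson r of -0.60, -0.66, -0.69 and -0.61 over 22, 26, 13 and 26 cells in the order of mice above. The histone mean had an r of 0.10, 0.16, -0.03 and 0.34 with the S phase mean and of 0.08, 0.15, -0.10 and -0.11 with the spindle mean. These correlations describe cells that share library, plate and depth, and carry no test.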

How the data were processed

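Single cells of 1 group were profiled by Smart-seq2. The authors' deposited matrix gives log2 expression that the authors had normalized and corrected for batch, from -4.13 to 15.99 over 13737 features. The submitters' processing notes name Salmon and GRCm38 but no versions. How values were normalized and corrected, and how cells were filtered: not given in the sources used here. Counts or TPM were foreseen when the tests were planned, and the log2 values entered the tests unchanged. Cells fell into 4 sets by exact shared values. A gene's repeated lowest value in a set (tolerance 1e-06) stood for no reads, which could be found in all 4 sets for 12054 genes and not for Top2a. IDs were matched to GENCODE vM21 (13578 matched), and positions are those of GRCm38. The matrix holds 105 rows that equal another row within 1e-06. Depth in reads is unknown. A further reporter is not reported here.

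Inside each mouse id a linear fit of the log2 value on membership, plate and number of detected genes was made for genes detected in at least 10% of cells, without the score genes. The 4 differences entered limma 3.58.1 (R 4.3.3), two-sided, intercept only. The S-high cells were the 87 other cells with the highest S phase mean. The code was tested on simulated data.

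The members, lists and tests were chosen with earlier results of these data known. Named genes are, for each list, up to 4 called genes with the largest difference and the same sign in 4 of 4 mice (or up to 3 uncalled ones), a fixed set of progenitor, lineage and cell-cycle genes, and the 15 highest and 15 lowest called genes (8 and 8 against S-high cells); others are said to be chosen after their values were seen. Alternatives were the filter, ranks, covariates, the threshold and genes of the score, units and left-out mice or wells.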

Additional observations from a re-analysis of the deposited data

Results flagged for a closer look

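Among the groups of 4 mouse values examined, 4 groups (2.82%) held a value far from the others by Dixon's test at the 95% level, and chance alone flags about 1 in 20 groups. Incenp, the scaffold of Aurora B, had an adjusted log2 difference (G2/M minus other cells) of 3.378 in mouse 2A and of 4.055 to 4.122 in the other mice. Ndc80 of the kinetochore was at 5.271 in mouse 2B and at 3.829 to 4.053 in the rest. The variant histone gene H2afx was at 1.341 in mouse 1A, against 2.273 to 2.353. The tubulin Tubb4b, which was not called, was at 0.3147 in mouse 1A, against 1.599 to 1.751. All 4 genes were above 0 in every mouse.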

How the results depend on the processing

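Against other cells 1.58% of genes were called, 94.4% of them higher, and 0.756 to 0.941% when 1 mouse was left out (0.925% without 1A, 0.756% without 1B, 0.941% without 2A and 0.893% without 2B). It was 0.917% with levels under 10 set to no reads, 1.05% without the first 8 wells of each set, 2.61% on ranks (80.6% of them higher) and 15.9% without the term for detected genes, which moved the median of all genes to 0.33. Every other alternative gave 1.15 to 1.84%, with 1.43% for the correction set in place of plate and 1.53% for sets in place of mice. Against S-high cells 1.0% of genes were called, and 0.428 to 0.622% with 1 mouse left out. It was 1.54% without the term for detected genes, 0.654% without the first 8 wells, and 0.654% with members taken by rank inside each mouse. In both comparisons all called genes kept their sign under each alternative that tested them, except Ptk7 against other cells, which was at 0.42 without the term for detected genes. The correction sets as units called Kit and Cd34 lower (adjusted p = 0.0388 and 0.0449). The restriction to cells with Kit and Cd34, the S phase mean as a covariate, the sets as units, and the wells left out against S-high cells were chosen after seeing the data. The difference in detected genes of 805 was 683 to 874 with 1 mouse left out. Both classes come from the same mice and the differences were taken inside each mouse, so the comparisons are already paired by mouse. The 4 mice and unknown read depth limit the smaller differences, and a gene not called may still differ.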

Other observations

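Marker pairs of other blood lineages were also detected in G2/M cells, as values with no test. Of the cells in which Siglech and Irf8, genes of plasmacytoid dendritic cells, were both detected, 35 were G2/M cells (28.2%, exact 95% Clopper-Pearson interval 20.5 to 37%). The shares were 15 of 42 (35.7%, 21.6 to 52%) for the macrophage genes Adgre1 and Csf1r, 20 of 46 (43.5%, 28.9 to 58.9%) for the basophil and mast cell proteases Mcpt8 and Prss34, and 16 of 43 (37.2%, 23 to 53.3%) for Il2rb and Klrk1 of NK cells. All 4 intervals, which cover counting error only, include the 33.3% of all cells. Detection of a pair can come from few reads and is not a call of cell type. In the first 8 wells of each set 9 of 32 cells were G2/M cells, and 34.1% were in the later wells.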
